A study of Mus musculus with 2 samples.

Results

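Genes of the ubiquitin system were described here in a map of SRCAP, the ATPase of the complex by which histone H2A is exchanged for H2A.Z. Members were chosen by symbol, as protein-coding genes whose name starts with Usp and a digit or with Ube2 and a letter. The rule found 56 Usp genes and 37 Ube2 genes, 93 of the 21938 protein-coding genes on the nuclear chromosomes of GENCODE M21. The map came from 2 replicates of 1 group, SYAT mouse embryonic stem cells in the control condition. In this CGR8-derived line both Srcap alleles carry YPet and an auxin-inducible degron, and the OsTir1 receptor is stably expressed. The cells were kept with auxinole against basal loss of SRCAP, without auxin, and were moved to Serum LIF medium before the experiment. CUT&Tag was used, in which an anti-GFP antibody guides a transposase to the tagged protein. The 2 lists held 6158 and 12958 peaks. The labels do not say whether the replicates were separate cultures, and the study describes its replicates in general as cells grown and treated independently. No read numbers come with them, so depth is unknown and a gene without a peak cannot be called free of SRCAP. With 1 group and 2 libraries no comparison between conditions could be tested, and shares of genes are given as descriptions of these libraries.

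Ubiquitin is passed from an activating enzyme (E1) to a conjugating enzyme (E2) and then, with the help of a ligase (E3), to a substrate. Ube2 genes encode E2 enzymes, which influence the type of chain that is built, and a few of them handle related modifiers such as NEDD8 and ISG15. Usp genes encode ubiquitin-specific proteases, the largest group of deubiquitinases, which remove ubiquitin from proteins, histones H2A and H2B among them. The symbol rule also took in genes outside these activities. Usp6nl encodes a GTPase-activating protein, and Ube2cbp encodes a ligase-like protein that binds an E2.

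A gene was counted as bound in a replicate if a peak touched one of its promoters, defined as the 1000 bp before and the 500 bp after any transcription start site (TSS). In replicate 1, 18 of 56 Usp genes had such a peak, 32.1% (95% Wilson interval 21.4 to 45.2%), against 15.7% of all coding genes. In replicate 2 the number was 27, or 48.2% (35.7 to 61.0%), against 30.4% of all coding genes. Among the 37 Ube2 genes the first list gave 8 genes, 21.6% (11.4 to 37.2%), and the second gave 17, 45.9% (31.0 to 61.6%). Both families thus lay above the share of all coding genes in both libraries, and only for Ube2 in replicate 1 did the interval include the value of all coding genes. A peak in both replicates was found for 15 Usp genes (26.8%, 17.0 to 39.6%) and 6 Ube2 genes (16.2%, 7.65 to 31.1%), against 12.0% of all coding genes, a value inside the latter interval. The intervals cover counting error only, and genes are not replicates.

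**Figure D1:**
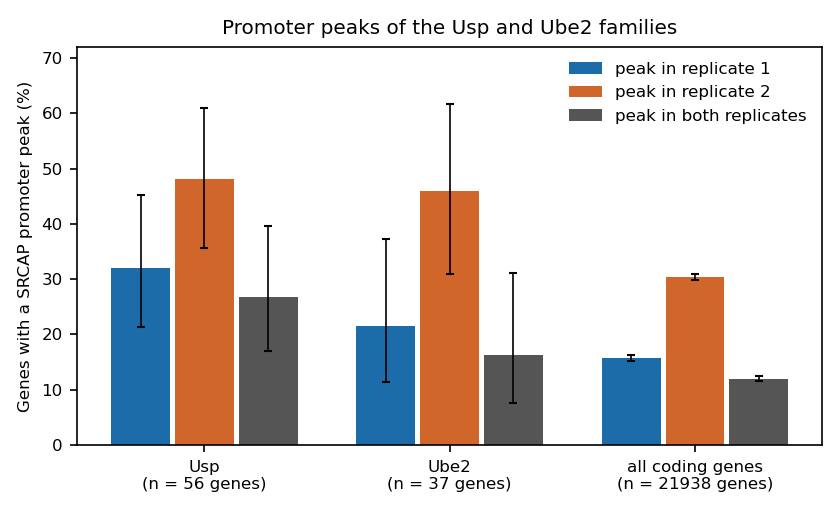
Percentage of genes with a SRCAP promoter peak (vertical axis, %) for Usp genes, Ube2 genes and all coding genes, in replicate 1, in replicate 2 and in both; error bars are 95% Wilson intervals. Bars of both families stand above those of all coding genes, and the intervals of the families overlap each other in every case.

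Over the replicates the mean share was 40.2% ± 11.4 (SD, n = 2) for Usp and 33.8% ± 17.2 (SD, n = 2) for Ube2. The Ube2 share minus the Usp share was -10.5 percentage points in replicate 1 and -2.27 in replicate 2, a mean of -6.39 ± 5.84 (SD, n = 2). This difference is smaller than the one between the replicates of either family, and it was not tested. For peaks in both replicates the difference was -10.6 points. With peaks of a score of at least 50 only, it was -12.5 and -11.4 points in the 2 replicates, a mean of -11.9. Relative to all coding genes, the share of all 93 members was 1.78 times as high in replicate 1 and 1.56 times in replicate 2. Of the members with a peak in replicate 1, 80.8% also had one in replicate 2, and 47.7% of those in replicate 2 had one in replicate 1. For all coding genes these values were 76.7% and 39.7%.

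Among the Usp genes, the strongest peaks found in both replicates were at Usp22, Usp53, Usp14, Usp20, Usp5 and Usp28, ordered by the worse of their ranks among promoter peaks. Sequences are given here for what lies under peaks of Usp22, which encodes the deubiquitinase of the SAGA coactivator, of Usp53, whose product is found at tight junctions, and of Usp20. The promoter of Usp31, which had no peak in either library and the highest observed over expected CpG ratio among such Usp genes, is given for contrast. Each is read from mm10 on the strand of the gene, 5′ to 3′, and is the longest part of the overlap of both peaks outside exons of coding genes, up to 300 bases around its center. For Usp31 it is the stretch before the principal TSS. Capitals mark matches on either strand to the motifs searched in promoters, here the CCAAT box (bound by NF-Y), the GC box GGGCGG and the E-box CACGTG. The stretches lie at chr11:61175136-61175435 (minus strand, upstream of Usp22), chr3:122984041-122984281 (minus strand, in an intron of Usp53), chr2:30982202-30982278 (plus strand, directly before the TSS of Usp20) and chr7:121707254-121707503 (minus strand, directly before the TSS of Usp31).
Usp22: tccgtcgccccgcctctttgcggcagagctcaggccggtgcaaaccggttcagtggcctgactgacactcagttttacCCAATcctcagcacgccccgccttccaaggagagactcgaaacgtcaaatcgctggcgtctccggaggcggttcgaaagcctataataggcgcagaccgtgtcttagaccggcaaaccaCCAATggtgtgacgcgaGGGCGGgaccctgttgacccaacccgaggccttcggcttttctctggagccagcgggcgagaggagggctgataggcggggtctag
Usp53: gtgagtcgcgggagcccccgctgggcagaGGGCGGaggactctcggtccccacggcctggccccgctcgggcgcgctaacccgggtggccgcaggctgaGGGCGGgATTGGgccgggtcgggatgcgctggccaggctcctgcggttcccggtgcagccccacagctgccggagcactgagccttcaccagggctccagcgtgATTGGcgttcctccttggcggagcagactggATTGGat
Usp20: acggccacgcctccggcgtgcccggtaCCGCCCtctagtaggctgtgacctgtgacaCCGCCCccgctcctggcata
Usp31: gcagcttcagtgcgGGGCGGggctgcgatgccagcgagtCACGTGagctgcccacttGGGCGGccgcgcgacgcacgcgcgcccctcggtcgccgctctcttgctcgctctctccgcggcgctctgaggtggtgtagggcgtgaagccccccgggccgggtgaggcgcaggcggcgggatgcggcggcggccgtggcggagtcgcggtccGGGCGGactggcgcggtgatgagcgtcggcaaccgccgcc

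The stretch of Usp22 holds 26 CpG sites in 300 bases, 2 CCAAT matches and 1 GGGCGG match. That of Usp53 holds 22 CpG sites in 241 bases, with 3 CCAAT and 2 GGGCGG matches. The 77 bases of Usp20 hold 8 CpG sites and 2 GGGCGG matches. The unbound promoter of Usp31, chosen for its CpG ratio, holds 41 CpG sites in 250 bases, 3 GGGCGG matches and 1 CACGTG match but no CCAAT. The stretches differ in length and place and are shown as examples.

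Each peak carries a score from the peak caller, which was read as −log10 q multiplied by 10 and rises with the strength of the call. At Usp22 on chromosome 11 the peak spanned 61175056 to 61175514 in replicate 1, with a score of 174, and 61174860 to 61175522 in replicate 2, with a score of 126. These were within the top 0.485% and 4.03% of promoter peaks of their lists, and the midpoints lay at -230 and -136 bp, where negative values are upstream of the TSS. At Usp53 on chromosome 3, peaks at 122984041 to 122984875 (score 95) and 122984040 to 122984547 (score 135) were centered in the 5′ UTR, 13 and 30 bp from a TSS. At Usp14, which encodes a deubiquitinase of the proteasome, peaks at 10029652 to 10030133 and 10029484 to 10030148 of chromosome 18 had scores of 132 and 98 and lay in an intron, 130 and 206 bp downstream of a TSS. Scores and ranks come from lists of unequal length and unknown depth, so a difference between the replicates in either was not read as one in binding.

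At Usp20 on chromosome 2, the peaks at 30982017 to 30982544 and 30981988 to 30982524 had scores of 70 and 119 and covered the TSS. At Usp5, which takes apart free ubiquitin chains, peaks at 124829069 to 124829853 and 124829025 to 124830083 of chromosome 6 scored 58 and 161, and the latter was the widest of the members' strongest peaks, at 1059 bp. Both promoters are divergent, with BC005624 starting 78 bp from Usp20 and Cdca3 63 bp from Usp5, so these peaks cannot be assigned to a single gene. At Usp28, whose product is linked to MYC stability and the DNA damage response, peaks at 48985056 to 48985295 and 48985056 to 48985389 of chromosome 9 began at the same base and scored 54 and 94.

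The other 9 Usp genes with a peak in both replicates had lower ranks in at least 1 list. Usp1, which acts on FANCD2 and PCNA, scored 66 in replicate 1 and 67 in replicate 2. Usp36, a nucleolar deubiquitinase, scored 75 and 51. Usp44, an H2B deubiquitinase, scored 23 and 84. Usp37 scored 41 and 127, and Usp35 79 and 29. The values were 43 and 52 at Usp13, a paralog of Usp5, 34 and 48 at Usp38, 46 and 29 at Usp48, and 28 and 21 at Usp10. The order of scores was thus not kept between the libraries. In 5 of the 15, the peak also lay in the promoter window of another coding gene, which was Cnot9 for Usp37, Kctd21 for Usp35 and Gm20388 for Usp10, besides those of Usp20 and Usp5. Among all Usp genes with a promoter peak such sharing was found for 27.8% and 18.5% in the 2 libraries, near the 23.8% and 22% of all coding genes with one. At Usp37 the peak was at an alternative TSS, 38127 bp downstream of the principal one in replicate 1.

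A further 12 Usp genes had a promoter peak in replicate 2 only (21.4%, against 18.3% of all coding genes). The highest score among them was 126 at Usp54, followed by 58 at Usp42 and 56 at Usp3, an H2A deubiquitinase. At Usp54 the nearest replicate 1 peak was 584 bp from a TSS, just past the 500 bp limit, so it was not counted. The remaining 9 were Usp4, Usp6nl, Usp9x, Usp18, Usp19, Usp32, Usp43, Usp45 and Usp47, with scores from 14 to 55. Usp18 encodes the protease for ISG15. In replicate 1 only, peaks were found at Usp8 (score 52), Usp33 (22) and Usp12 (21).

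No promoter peak was called in either replicate at 26 Usp genes (46.4%), against 66.0% of all coding genes. Among them were Usp7, which acts on MDM2 and p53, and the histone deubiquitinases Usp16, Usp21, Usp27x, Usp49 and Usp51. The 5 Usp17l genes, similar copies on chromosome 7 whose reads may not be told apart, had none either. The others were Usp2, Usp9y, Usp11, Usp15, Usp24, Usp25, Usp26, Usp29, Usp30, Usp31, Usp34, Usp39, Usp40, Usp46 and Usp50. In replicate 2, 3 of the 26 had a peak within 2000 bp of a TSS, which were Usp24 (1022 bp), Usp21 (1274 bp) and Usp29 (1017 bp). In replicate 1 only Usp29 did, at 1684 bp.

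**Figure D2:**
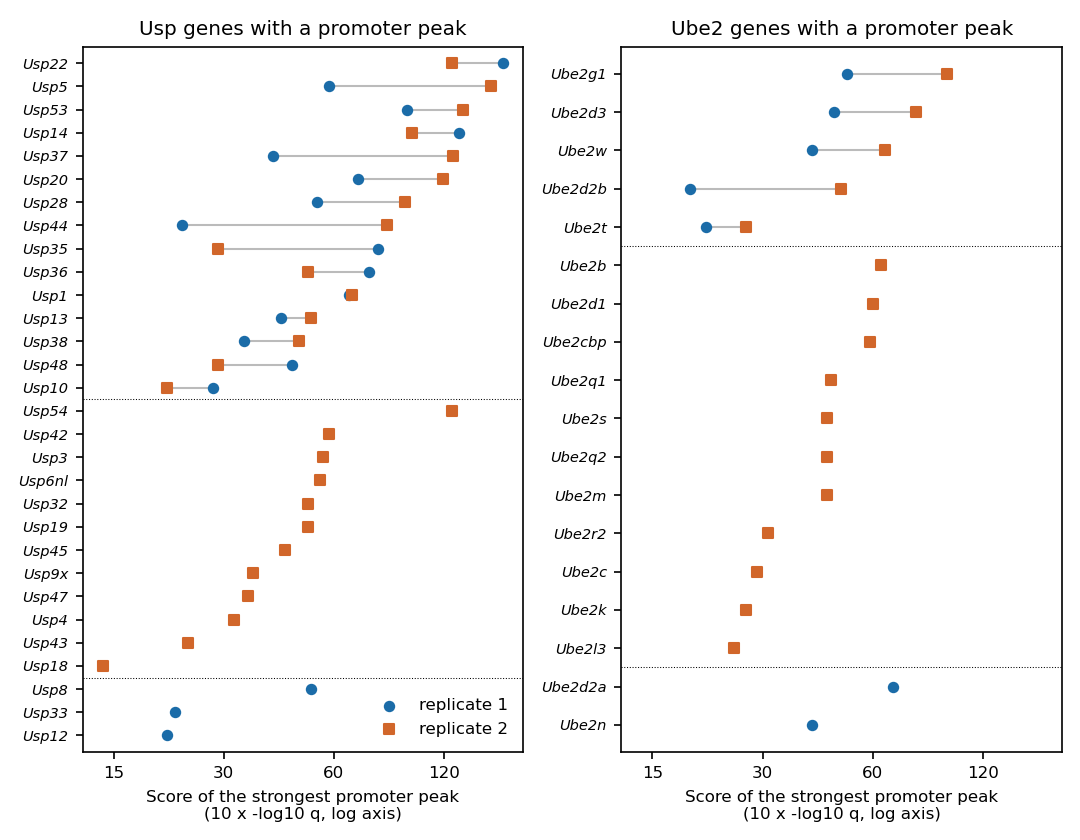
Score of the strongest promoter peak (horizontal log axis, 10 times −log10 q) of each Usp and Ube2 gene that had one, apart from 1 Ube2 gene not shown, with circles for replicate 1 and squares for replicate 2; lines join genes found in both, and dotted lines separate genes of both replicates, of replicate 2 only and of replicate 1 only. Usp scores reach 174 and 161, and Ube2 scores reach 68 and 96.

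Peaks at Ube2 genes had scores near those of all coding genes, and those at Usp genes were higher. Their median scores were 41 and 46 in the 2 libraries, where Usp genes had 53 and 52 and all coding genes with a promoter peak 36 and 44. A score of at least 50 was reached by 2 of 8 Ube2 genes in replicate 1 and 7 of 17 in replicate 2, or 25% and 41.2%, against 26.8% and 43.0% of all coding genes with a promoter peak. Among Usp genes it was reached by 10 of 18 and 17 of 27, or 55.6% and 63%. These differences were not tested.

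The leading Ube2 genes with a peak in both replicates were Ube2g1, an E2 of endoplasmic reticulum-associated degradation, Ube2d3, an E2 that works with many ligases, and Ube2w, which attaches ubiquitin to protein N termini. Their sequences are given by the same rule as above, with Ube2j1, the unbound Ube2 gene with the highest CpG ratio, for contrast. They lie at chr11:72607205-72607282 (plus strand, directly before the TSS of Ube2g1), chr3:135437793-135438081 (plus strand, upstream of Ube2d3), chr1:16619490-16619544 (minus strand, directly before a TSS of Ube2w) and chr4:33031166-33031415 (plus strand, directly before the TSS of Ube2j1). Capitals mark CCAAT and GGGCGG matches on either strand.
Ube2g1: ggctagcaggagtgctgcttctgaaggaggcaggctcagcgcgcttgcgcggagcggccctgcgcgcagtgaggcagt
Ube2d3: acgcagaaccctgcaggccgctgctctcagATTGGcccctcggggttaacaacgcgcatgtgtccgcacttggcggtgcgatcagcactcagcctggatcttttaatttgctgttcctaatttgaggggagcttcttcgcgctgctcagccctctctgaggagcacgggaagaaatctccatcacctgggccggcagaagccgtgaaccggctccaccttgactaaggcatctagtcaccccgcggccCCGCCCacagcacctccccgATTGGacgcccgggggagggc
Ube2w: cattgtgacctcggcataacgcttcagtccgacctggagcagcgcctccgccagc
Ube2j1: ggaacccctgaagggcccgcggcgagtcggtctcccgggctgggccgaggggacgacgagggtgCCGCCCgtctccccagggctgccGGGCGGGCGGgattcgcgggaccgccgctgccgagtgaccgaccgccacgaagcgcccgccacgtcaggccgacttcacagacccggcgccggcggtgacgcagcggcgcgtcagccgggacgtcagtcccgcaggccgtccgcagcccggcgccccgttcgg

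The stretch of Ube2d3 holds 20 CpG sites in 289 bases, 2 CCAAT matches and 1 GGGCGG match. The shorter stretches of Ube2g1 (78 bases) and Ube2w (55 bases) hold 7 and 5 CpG sites and none of the 9 motifs searched. The unbound promoter of Ube2j1, chosen in the same way, holds 42 CpG sites in 250 bases and 3 GGGCGG matches, 2 of which overlap.

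At Ube2g1 on chromosome 11, peaks at 72606886 to 72607464 and 72607205 to 72607810 had scores of 51 and 96, the only Ube2 gene with at least 50 in both lists. The replicate 1 peak was centered at -108 bp and the replicate 2 peak at 188 bp from a TSS. At Ube2d3 on chromosome 3, peaks at 135437793 to 135438081 and 135437763 to 135438404 scored 47 and 79 and were centered at -212 and -66 bp. At Ube2w on chromosome 1, peaks at 16619066 to 16619544 and 16619351 to 16619712 scored 41 and 65.

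At Ube2t, the E2 of the Fanconi anemia pathway, peaks at 134962247 to 134962513 and 134962471 to 134962766 of chromosome 1 scored 21 and 27 and shared only 43 bp. At Ube2d2b on chromosome 5, peaks at 107830150 to 107830413 and 107830181 to 107830439 scored 19 and 49. At the 6 Ube2 genes with a peak in both replicates, no peak lay in the promoter window of another coding gene, a small count beside the 23.8% and 22% of all coding genes with a peak.

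In replicate 2 only, a promoter peak was found at 11 Ube2 genes (29.7%, against 18.3% of all coding genes). Ube2b, an E2 for histone H2B, had the highest score, 63, followed by Ube2d1 with 60 and Ube2cbp with 59. The others scored 25 to 46. They were Ube2c and Ube2s, the E2 enzymes of the anaphase-promoting complex, Ube2m, which conjugates NEDD8, and Ube2k, Ube2l3, Ube2q1, Ube2q2 and Ube2r2. The Ube2k peak also lay in the promoter window of Smim14. In replicate 1 only, Ube2d2a scored 68, the highest Ube2 value of that library, and Ube2n, which builds signaling chains, scored 41. The nearest replicate 2 peaks were 13678 and 15965 bp from their TSSs.

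The 18 Ube2 genes without a promoter peak (48.6%, against 66.0% of all coding genes) were Ube2a, Ube2dnl1, Ube2dnl2, Ube2e1, Ube2e2, Ube2e3, Ube2f, Ube2g2, Ube2h, Ube2j1, Ube2j2, Ube2l6, Ube2o, Ube2ql1, Ube2u, Ube2v1, Ube2v2 and Ube2z. A few groups of paralogs, picked after their peaks were seen, are given as a description beside the 34.0% of all coding genes with a peak in either replicate. All 4 genes Ube2d1, Ube2d2a, Ube2d2b and Ube2d3 had a peak in at least 1 replicate, and 0 of the 3 Ube2e genes, which act with similar ligases, and 0 of the 2 Ube2v genes, the partners of Ube2n, had any. Of the 18 genes, 0 in replicate 1 and 1 in replicate 2 (Ube2h, 3411 bp) had a peak within 5000 bp of a TSS. Within 2000 bp, the distance used above for Usp genes, there was none in either replicate. Of the 26 Usp genes without a promoter peak, 1 in replicate 1 and 6 in replicate 2 had a peak within 5000 bp. These distances were not set against all coding genes.

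Lists of genes by role were counted next. Of 10 histone deubiquitinases, 3 had a peak in both replicates (Usp22, Usp36 and Usp44) and 6 in neither. Of 6 Usp genes of genome maintenance, 2 had a peak in both (Usp1 and Usp28). Of 5 Usp genes linked to the proteasome and protein turnover in organelles, 1 had (Usp14), and of 4 linked to RNA processing and translation, 1 had (Usp10). Usp7 counts in both of the first lists. Among the E2 lists, 3 of 8 chain-initiating E2 genes had a peak in both, and 1 of 5 of the endoplasmic reticulum (Ube2g1). So did 1 of 3 for histones and DNA repair (Ube2t). The count was 0 each of 3 for signaling chains, 2 of the anaphase-promoting complex and 2 cullin partners. A further E2 list is not reported here. With 2 to 10 genes per list the counts stand beside the 12.0% of all coding genes as a description, and no list was tested.

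Other genes of the pathway were compared by the same count. Of 41 such genes, 11 were bound in the first library (26.8%), 20 in the second (48.8%) and 7 in both (17.1%), and of the 93 members 28.0%, 47.3% and 22.6%, where all coding genes gave 15.7%, 30.4% and 12.0%. Of genes that encode ubiquitin itself, Rps27a had peaks in both libraries with scores of 35 and 72, and Ubb had a peak in replicate 1 only with a score of 13. Of 8 genes for E1 enzymes or their subunits, 2 had a peak in both, the NEDD8 E1 subunit Uba3 (54 and 61) and Uba6 (27 and 50), while Uba1, the main ubiquitin E1, had none. Of 29 deubiquitinases of other families, 6 had a peak in replicate 1 and 16 in replicate 2, larger shares than those of all coding genes. In both replicates 4 had one (13.8%), near the 12.0% of all coding genes. They were led by Cyld (134 and 138) and Otud4 (120 and 124), with Brcc3 (24 and 68) and Otub2 (57 and 31) behind.

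The count of promoter peaks limits how far from a TSS a peak can lie, so positions were compared with those of all coding genes, and they were similar. The midpoint was within 200 bp of a TSS of the gene for 14 of 18 Usp (77.8%) and 6 of 8 Ube2 genes (75%) in replicate 1, and for 16 of 27 (59.3%) and 14 of 17 (82.4%) in replicate 2. For all coding genes the shares were 64.7% and 65.3%, and for all members 76.9% and 68.2%. Members had median distances of 131 and 127 bp, and all coding genes 136 bp in either list. Midpoints fell on either side, with 12 of 26 and 20 of 44 members downstream. In all 21 members with a peak in both replicates the peaks overlapped each other, by 43 to 819 bp with a median of 324 bp. This was not compared with all coding genes. Both peaks had to touch promoter windows of the same gene, so the overlap was not read as particular to the members.

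**Figure D3:**
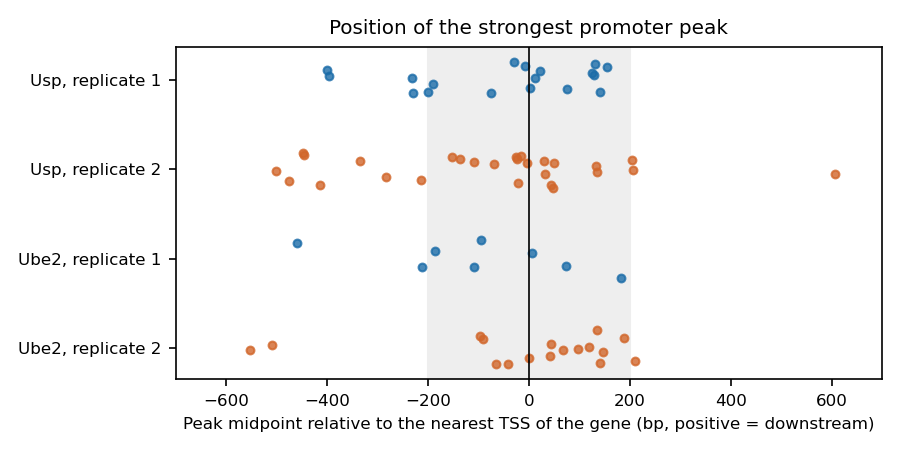
Distance of the midpoint of the strongest promoter peak from the nearest TSS of the gene (horizontal axis, bp, positive values downstream) for Usp and Ube2 genes in each replicate, 1 point per gene; the shaded band marks 200 bp on either side. Most points fall in the band, and the farthest is Usp54 in replicate 2 at 607 bp.

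The promoters of the members were rich in CpG. The observed over expected CpG ratio in the same window around the principal TSS had a median of 0.733 for Usp and 0.767 for Ube2 genes, against 0.502 for all coding genes. A ratio over 0.6 was found for 66.1% of Usp, 83.8% of Ube2 and 38.8% of all coding genes. Within this class, 30.9% of the 68 members were bound in the first library and 51.5% in the second, where all 8509 coding genes of the class gave 26.1% and 50.0%. The ratio of members to coding genes in this class was 1.18 and 1.03, where it had been 1.78 and 1.56 without regard to CpG. Among CpG-rich promoters the members were therefore nearer to all coding genes than in the whole annotation. For Ube2 genes of the class the shares were 22.6% and 48.4%, below all coding genes of the class, and for Usp genes 37.8% and 54.1%, above them.

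**Figure D4:**
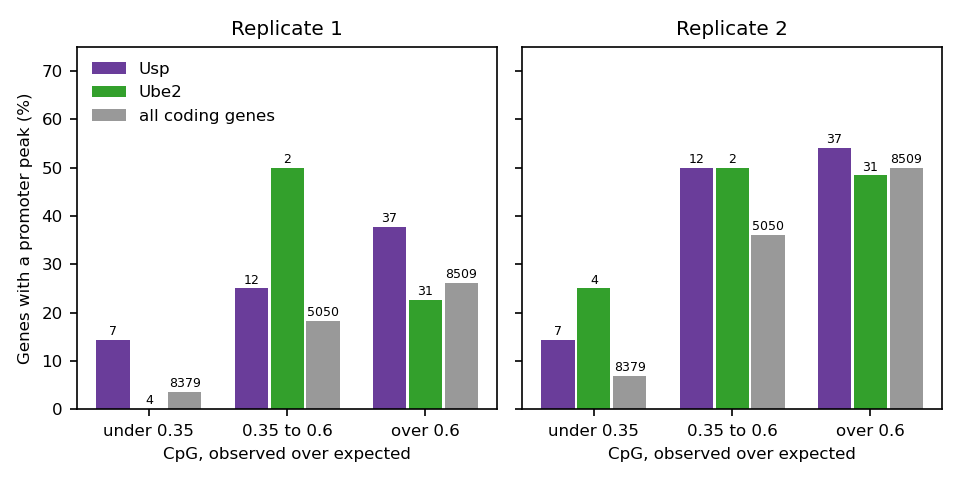
Percentage of genes with a promoter peak (vertical axis, %) in replicate 1 (left) and replicate 2 (right) for Usp, Ube2 and all coding genes, by the class of the observed over expected CpG ratio (horizontal axis); numbers above the bars are genes per class. In the class over 0.6 the bars of all coding genes, 26.1% and 50.0%, lie between those of both families.

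The CpG ratio separated bound from unbound members less than it did over all genes. Its median was 0.748 for the 21 members with a peak in both replicates and 0.71 for the 44 without a promoter peak. Over all coding genes it was 0.678 and 0.318. The families differed, with medians of 0.748 and 0.618 for Usp genes and 0.758 and 0.776 for Ube2 genes. Among members without a peak, 28 of 44 had a ratio over 0.6, among them Ube2j1 (1.07), Usp31 (1.0), Usp7 (0.983) and Ube2e3 (0.936). Among the 11 members under 0.35, only Usp37 (0.189) and Ube2l3 (0.0579) had a peak, in both cases at a TSS other than the principal one.

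**Figure D5:**
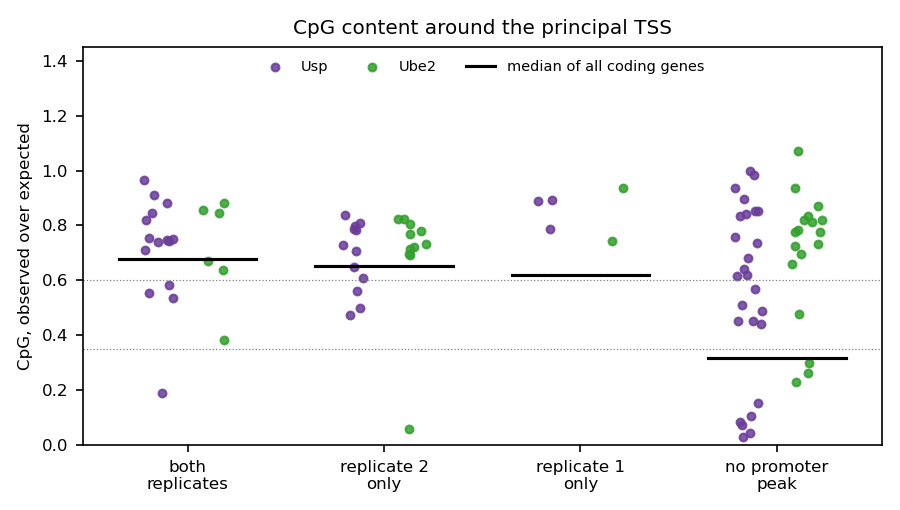
Observed over expected CpG ratio around the principal TSS (vertical axis) of each Usp and Ube2 gene by the replicates in which it had a promoter peak, 1 point per gene; black lines are medians of all coding genes of each column and dotted lines the class limits 0.35 and 0.6. The line drops from 0.678 to 0.318 between the first and the last column, while most members without a peak stay above 0.6.

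The number of annotated TSSs enlarges the window and differed too. The median was 5 per member and 3 per coding gene. Of the 50 members with 5 or more TSSs, 36.0% were bound in the first library and 54.0% in the second, and of all coding genes with as many 23.6% and 45.9%. Promoter windows that overlap one of another coding gene were found for 8 Usp (14.3%) and 2 Ube2 genes (5.41%), against 16.0% of all coding genes. Without such genes, the Ube2 share minus the Usp share was -4.23 percentage points in replicate 1 and 1.96 in replicate 2, so the sign differed between the libraries. It did so too with the principal TSS of each gene only, at -8.74 and 0.386 points.

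Members on the sex chromosomes were few. Of 8 members on the X chromosome, none had a peak in the first library and 1 in the second, Usp9x with a score of 36, and Usp9y on the Y chromosome had none. Over all coding genes of the X chromosome the shares were 7.91% and 18.2%, and on the Y chromosome 0 genes and 2 genes of 183 had a peak in the 2 libraries. On chromosome 8, both members, Usp10 and Usp38, had a peak in both replicates, against 22.1% of all coding genes of that chromosome. Of those coding genes, 26.5% had a peak in replicate 1 and 41.4% in replicate 2. With so few members this is a description only.

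Short motifs were searched on both strands from 250 bp upstream to 50 bp downstream of each principal TSS. The box GGGCGG of SP and KLF factors was present in 67.7% of members and 45.6% of all coding genes, and in genes with a CpG ratio over 0.6 in 80.9% and 74.7%. CCAAT, read by NF-Y, was present in 35.5% and 38.4%. The ETS motif CCGGAAG was found in 9 Ube2 genes (24.3%) and 7 Usp genes (12.5%), against 11.2% of all coding genes. AAGATGGCG, a YY1 motif, was found in 5 members (5.38%, against 1.88%), and CGCATGCG, an NRF1 motif, in 3 (3.23%, against 2.68%). CTCGCGAG, of the kind bound by ZBTB33, was found in 4 members (4.30%, against 1.20%), which included Usp1 and Ube2d3. TGACGTCA (2.15%, against 2.48%) and CACGTG (5.38%, against 7.77%) were rare. TATAAA was found in 1 of 21 members with a peak in both replicates and 9 of 44 without any, and over all coding genes in 5.68% and 15.7%. The 9 included Usp17lb, Usp17lc, Usp17ld and Usp17le, similar copies whose reads may not be told apart. GGGCGG was found in 16 of the 21 (76.2%) and 24 of the 44 (54.5%), and over all coding genes in 69.5% and 35%. Among genes with a CpG ratio over 0.6, AAGATGGCG was in 4.41% of members and 3.51% of coding genes, CCGGAAG in 22.1% and 18.9%, and CGCATGCG in 4.41% and 4.50%, and CTCGCGAG in 5.88% and 2.60%. In the same class CCAAT was in 29.4% and 36.7%, CACGTG in 7.35% and 11.1%, TATAAA in 7.35% and 5.57% and TGACGTCA in 2.94% and 3.93%, so the distance from coding genes shrank for some motifs and grew for others. The matches are letters in these windows and were not tested as binding sites.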

How the data were processed

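CUT&Tag for SRCAP-YPet was done on 2 replicates of control SYAT cells, from 200000 cells each with 1 h of transposition. STAR, Picard and MACS2 and the build mm10 are named in the submitters' processing notes. Peaks were called by the authors in each sample alone, and the deposited lists give position and a score per peak. The study's methods call peaks after downsampling by Drosophila reads, and its reporting form gives an input as control, but whether either holds for these CUT&Tag lists is unclear. The lowest deposited score was 13, which is what a q-value limit of 0.05 gives on a scale of −log10 q multiplied by 10 without decimals, so scores were read on that scale.

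Genes and TSSs came from GENCODE M21, and sequence from GRCm38.p6 as distributed by NCBI, the assembly of mm10. Peaks needed at least 1 bp in the window. The principal TSS was that of the transcript with the best APPRIS tag, then the longest. The members and lists were chosen with earlier results of these data known. The genes described with coordinates were the 6 of each family with a peak in both replicates and the best worse rank of score, other members were named with scores or by list, some genes are counted but not reported here, and sequences followed the same order for 3 genes per family outside chromosome 18, plus the unbound gene with the highest CpG ratio, each shortened to bases outside exons of coding genes. Intervals are 95% Wilson intervals. No test was run, since there is 1 group. Alternatives changed the window, the TSSs, the overlap, the minimum score, list length, symbols, chromosomes, shared windows and background. The overlap code was tested on simulated data. The work used Python 3.11.15, numpy 2.4.6, scipy 1.17.1 and matplotlib 3.10.9.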

Additional observations from a re-analysis of the deposited data

How the results depend on the processing

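Depth is unknown, so peaks found in 1 library only and genes without a peak cannot be read as absence. Over 6 results, 63 of 73 values under the alternatives moved by less than 1 SD between replicates or, for counts, by at most 1.5-fold. Of the means, 0 changed sign. At the 1.5-fold limit, 10 Usp genes had a peak in both replicates without shared promoter windows. The SD comes from 2 libraries and is wide, 11.4 and 17.2 points for the Usp and Ube2 shares and 5.84 for their difference. Most shifts fall below such a limit, so the tally says little about stability. The mean difference between families, -6.39 points, was -1.13 without shared windows, -11.9 with a score of at least 50 and -10.5 among genes with a CpG ratio over 0.6. With a TSS inside the peak, the mean share of Usp genes was 26.8%, and 9 Usp and 3 Ube2 genes had a peak in both replicates, in place of 15 and 6. With a score of at least 50, which removes weaker peaks, the mean shares were 24.1% for Usp and 12.2% for Ube2, 8 Usp genes and 1 Ube2 gene had a peak in both replicates, and the ratio of members to all coding genes was 2.52. With Usp symbols of digits alone and Ube2 symbols without suffixes of related genes it was 1.88, and among genes with a CpG ratio over 0.6, an alternative chosen after seeing the data, 1.11. In place of the main 1.67, it was 1.56 against a background without olfactory, vomeronasal and trace amine receptor genes. The cause of the other shifts was not tested. Leaving out 1 replicate leaves the value of the other, from 32.1% to 48.2% for Usp, 21.6% to 45.9% for Ube2, -10.5 to -2.27 percentage points for the difference and 1.56 to 1.78 for the ratio, which with 2 replicates says nothing about stability. No paired analysis was possible because all samples belong to 1 group.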
